A study of Mus musculus with 6 samples.

Results

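The Sp factors are a family of transcription factors, and all 9 members that the mouse table lists by symbol, Sp1 to Sp9, were followed in the outer cell layer of the limb bud. They were found by symbol among 49452 genes, and each symbol matched 1 row. RNA had been measured in 6 libraries of forelimb bud ectoderm at E10.5, each made from both forelimbs of 1 embryo, so the libraries are separate animals. The 3 Sp8 null embryos are described as coming from crosses between carriers of an Sp8 allele named Sp8-Cre-ERT2. The 3 wild-type embryos are described as coming from C57BL/6 inbred crosses. By that description the wild-type embryos were not littermates of the null ones and did not carry the Cre-ERT2 allele. How that allele interrupts Sp8 is not given in the sources used here. Levels are in FPKM, fragments per length of transcript and per total of mapped fragments, and can therefore be compared between genes of different length.

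Sp factors bind GC-rich DNA, such as the GC box, through C2H2 zinc fingers near the C terminus, and the KLF factors are their nearest relatives. Sp1 to Sp4 are made in most cell types and carry activation domains rich in glutamine, while Sp5 to Sp9 are made in restricted patterns in the embryo and are related to the fly gene buttonhead. In the limb bud, Sp6 and Sp8 act in the ectoderm downstream of Wnt signalling through beta-catenin and are needed for the apical ectodermal ridge, the thickened rim whose Fgf signals drive outgrowth, and Sp9 is made in the ridge. The comparison asks how the other family members were expressed where Sp8 was lost, a question of redundancy and compensation within the family.

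In wild-type ectoderm the family fell into levels far apart. The highest was Sp1 at 34.5 ± 1.43 FPKM (SD, n = 3 for this and every mean given here), followed by Sp3 at 23.3 ± 0.259 FPKM and Sp8 at 10.9 ± 2.56 FPKM. Sp4 at 6.10 ± 0.712 FPKM and Sp2 at 6.06 ± 0.119 FPKM came next, and their ranges overlapped. The remaining members were under 1 FPKM in every library. Of these, Sp9 at 0.639 ± 0.178 FPKM and Sp7 at 0.347 ± 0.119 FPKM had overlapping ranges, as did Sp5 at 0.148 ± 0.118 FPKM and Sp6 at 0.0300 ± 0.0409 FPKM. The place of Sp6 rests on a row that shares 86.7% of its exon bases with Gm11532, listed at 25.1 ± 3.63 FPKM, so the level of Sp6 cannot be read from it. Sp7 and Sp5 did not overlap, but the lowest Sp7 value was 0.276 FPKM and the highest Sp5 value 0.271 FPKM. In Sp8 null ectoderm the order of the 4 broadly expressed members was Sp1, Sp3, Sp2 and Sp4, and Sp8 came next at 0.787 ± 0.338 FPKM.

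**Figure D1:**
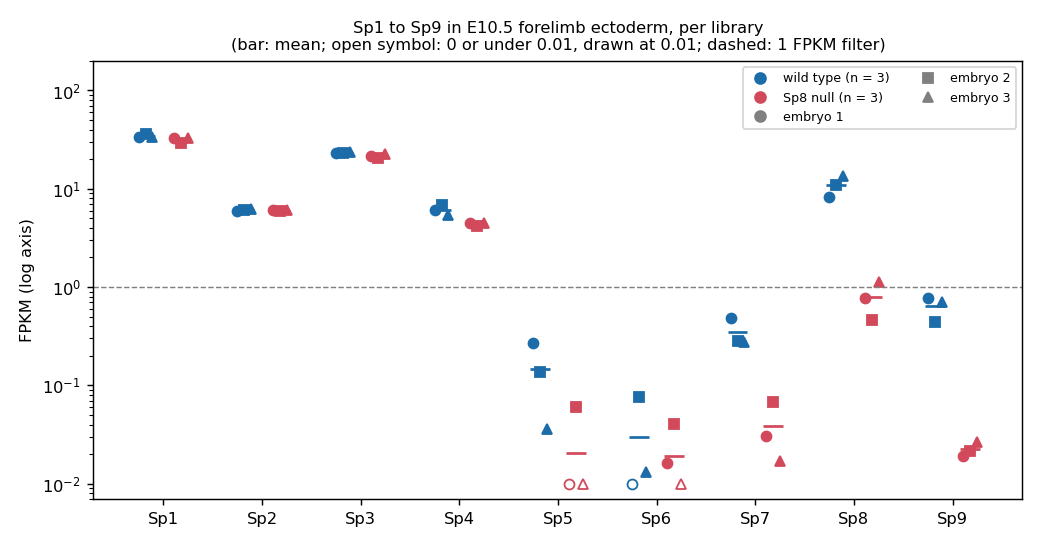
FPKM of Sp1 to Sp9 on a log axis in each of 3 wild-type (blue) and 3 Sp8 null (red) libraries, with the mean as a bar, the embryo number as the symbol shape, and values of 0 or under 0.01 FPKM drawn as open symbols at 0.01. Sp8, Sp9 and Sp7 are separated widely between the groups, Sp4 by less, and Sp1, Sp2 and Sp3 hardly at all.

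All 9 members had a lower mean in Sp8 null, Sp6 by its own row with the limit just given, and for 6 of them (Sp1, Sp3, Sp4, Sp7, Sp8 and Sp9) every null library lay below every wild-type library. Among the 27766 genes above 0 in at least 1 library, 11.8% were separated in this way and 7.47% with every null library above. Among the tested genes described next the share separated with null below was 21.1%, against 4 of the 5 tested members. A lower mean in Sp8 null was found for 7432 of those 12133 genes. With FPKM rescaled between libraries by median-of-ratios or upper-quartile factors, Sp1 and Sp3 overlapped, the 4 members Sp4, Sp7, Sp8 and Sp9 still did not, and Sp2 had the higher mean in Sp8 null. These 4 include Sp8 itself, and the share of all genes so separated was not determined for rescaled values. No member was higher in Sp8 null without overlap under any of these scalings. Differences were tested with limma on log2(FPKM + 1) for the 12133 genes at 1 FPKM or more in at least 3 libraries, a filter that 5 members passed (Sp1, Sp2, Sp3, Sp4 and Sp8). Genes with a Benjamini-Hochberg adjusted p under 0.05 are called, and 1 of the 5 tested members, Sp8 itself, was called, against 6.83% of all tested genes. The calls over all genes were 204 higher and 625 lower, a split that became 322 and 544 under median-of-ratios scaling and 363 and 507 under upper-quartile scaling.

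Sp8 (ENSMUSG00000048562) lies on the plus strand of chromosome 12, from 118846329 to 118852576 (GRCm38), and is protein-coding. It was at 8.35, 11.0 and 13.5 FPKM in wild-type embryos 1, 2 and 3 and at 0.766, 0.460 and 1.14 FPKM in Sp8 null embryos 1, 2 and 3. The groups were far apart, and the null mean was 7.20% of the wild-type mean, so some reads were still assigned to the gene in every null library. Since the altered part of the gene is not stated, the value checks the labels only as a total over the gene. The log2 fold change was -2.73 (95% interval -3.19 to -2.28, SE 0.195; limma, adjusted p = 0.000361), and in the authors' deposited table the group means were 149.39 for Sp8 null and 1960.23 for wild type, on a normalized count scale. Sp8 was called under all 15 alternatives, with log2 fold changes from -3.84 to -2.58.

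Sp9 (ENSMUSG00000068859), the member made in the apical ridge, lies on the plus strand of chromosome 2 from 73271925 to 73284706. Its wild-type values were 0.775, 0.437 and 0.704 FPKM, and its Sp8 null values were 0.0193, 0.0215 and 0.0266 FPKM. The null mean was 3.52% of the wild-type mean, against 7.20% for Sp8. These percentages are not like quantities, since Sp8 is the altered gene and the null values of Sp9 are near 0. The filter on low values kept Sp9 out of the fit. An exact two-sided permutation test of 3 against 3 libraries gave p = 0.1, the smallest it can give. When all genes above 0 were fitted with no filter, Sp9 differed by -0.67 on the log2(FPKM + 1) scale (95% interval -0.89 to -0.46; limma, adjusted p = 0.036), in a fit that called 1.23% of genes. With a pseudocount of 0.01 in place of 1 the difference was -4.29 (95% interval -5.44 to -3.13; limma, adjusted p = 0.0178), in a fit that called 1.58% of genes. The authors' deposited table listed means of 113.37 and 4.71, a fold change of -6.18 and a p-value of 0 to the digits given. On that scale the null mean amounts to a few counts per library, which limits the precision of the fold. A stretch of 270 exon bases of Sp9, 5.35% of its total, also belongs to Cir1 on the other strand. Cir1, with a wild-type mean of 12.4 ± 0.341 FPKM and a null mean of 13.0 ± 1.33 FPKM, did not pass the test (log2 fold change 0.06; limma, adjusted p = 0.714).

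Promoter sequences show how differently the members are laid out around their starts. The 3 shown first belong to members that were lower in Sp8 null without overlap under every scaling, and that of Sp1, the highest member, is shown beside them. They are windows of 300 bases around the start from RefSeq (GRCm38.p6), run 5′ to 3′ on the gene's strand, and carry in capitals every GC box, searched as GGGCGG on both strands (CCGCCC on the other strand). They lie at chr12:118846079-118846378 (plus strand) for Sp8, chr2:73271676-73271975 (plus strand) for Sp9, chr12:118301391-118301690 (minus strand) for Sp4 and chr15:102406066-102406365 (plus strand) for Sp1.
Sp8: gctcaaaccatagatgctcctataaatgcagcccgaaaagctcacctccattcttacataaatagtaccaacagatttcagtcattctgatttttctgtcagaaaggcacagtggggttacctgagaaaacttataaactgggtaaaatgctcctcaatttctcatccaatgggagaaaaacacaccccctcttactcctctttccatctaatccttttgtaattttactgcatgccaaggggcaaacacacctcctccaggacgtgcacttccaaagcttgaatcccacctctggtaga
Sp9: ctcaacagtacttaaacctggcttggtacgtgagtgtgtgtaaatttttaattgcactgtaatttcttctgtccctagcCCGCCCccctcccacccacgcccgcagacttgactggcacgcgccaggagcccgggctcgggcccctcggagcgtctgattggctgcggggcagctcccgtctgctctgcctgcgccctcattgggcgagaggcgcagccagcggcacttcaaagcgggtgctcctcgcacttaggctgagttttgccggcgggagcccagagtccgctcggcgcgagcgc
Sp4: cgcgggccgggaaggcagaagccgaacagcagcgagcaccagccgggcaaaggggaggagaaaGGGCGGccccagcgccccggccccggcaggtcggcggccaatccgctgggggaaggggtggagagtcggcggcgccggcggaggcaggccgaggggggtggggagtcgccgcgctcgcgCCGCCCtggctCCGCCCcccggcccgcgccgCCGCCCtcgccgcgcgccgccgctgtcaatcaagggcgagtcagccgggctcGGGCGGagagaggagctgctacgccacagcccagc
Sp1: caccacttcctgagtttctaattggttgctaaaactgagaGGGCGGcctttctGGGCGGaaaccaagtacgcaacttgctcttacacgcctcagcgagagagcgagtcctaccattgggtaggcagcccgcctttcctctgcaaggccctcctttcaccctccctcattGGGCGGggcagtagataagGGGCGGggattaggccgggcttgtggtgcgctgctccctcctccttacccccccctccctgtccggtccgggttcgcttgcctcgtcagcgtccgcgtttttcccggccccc

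The Sp8 window held no GC box, that of Sp9 held 1, that of Sp4 held 5 and that of Sp1 held 4. Among the other windows Sp3 held 2, and Sp2 and Sp5 held none. At least 1 was found in 35.7% of 32851 promoter windows of this length, and 5 or more in 2.71%. Those windows are not limited to expressed genes. Of the tested genes with a promoter entry, 6034 had at least 1 GC box in a window and 2398 had none. The CACCC box (CACCC, or GGGTG on the other strand), a related site of Sp and KLF factors, was found once in the Sp8 window and 2 times in that of Sp9, and at least once in 57.5% of all windows. The Sp8 window was 43.0% G and C and that of Sp4 78.7%. For the 7 members with an entry, the window nearest to the annotated start was used, which for Sp1 lay 173 bases from it. Matches describe the letters of these windows and were not tested as sites, and the printed Sp8 window is 1 of 3 that RefSeq gives.

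Sp6, the partner of Sp8 in limb ectoderm, could not be read from its own row. Sp6 (ENSMUSG00000038560) lies on the plus strand of chromosome 11, from 97013394 to 97024734, and 3329 of its 3841 exon bases, or 86.7%, are also exon bases of Gm11532 (ENSMUSG00000087067), a processed transcript on the minus strand from 97020508 to 97026248. Sp6 was listed at 1.75e-13, 0.0766 and 0.0133 FPKM in wild-type embryos 1, 2 and 3, and at 0.0163, 0.0406 and 1.24e-10 FPKM in the Sp8 null embryos. These values overlapped (exact two-sided permutation p = 0.9) and all were near 0. Gm11532 was listed at 21.1, 28.2 and 26.0 FPKM in the wild-type embryos and at 8.10, 6.52 and 9.99 FPKM in the Sp8 null embryos. Here the groups were well separated, and the log2 fold change was -1.51 (95% interval -1.88 to -1.14, SE 0.159; limma, adjusted p = 0.00215), the null mean being 32.7% of the wild-type mean. This fall was called under all 15 alternatives, with log2 fold changes from -1.65 to -1.38. The library kit, per the labels' protocols TruSeq v2, and the counting are not stated to keep strand, and without strand the reads of the shared bases cannot be told apart between the genes. The signal of the locus was listed under Gm11532, and whether Sp6, Gm11532 or both were lower cannot be told apart.

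**Figure D2:**
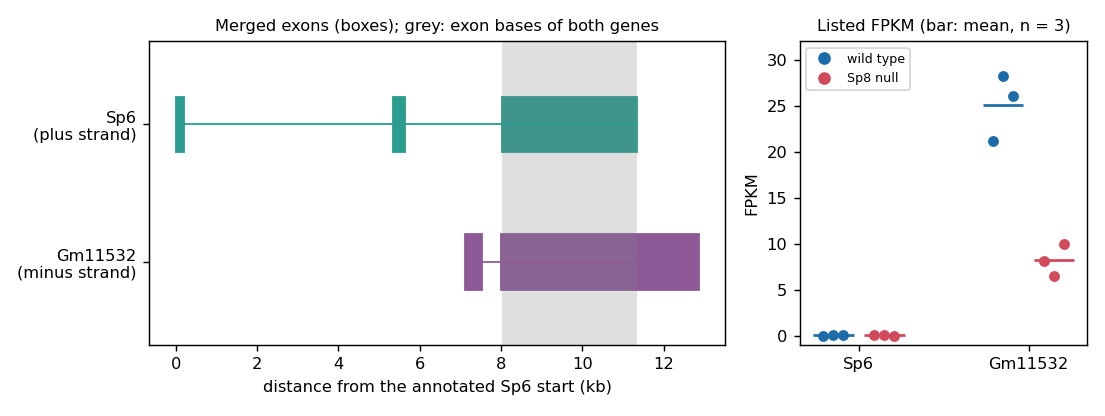
Left, merged exons of Sp6 and Gm11532 as boxes, in kb from the annotated Sp6 start, with the bases that both genes use as exon in grey; right, listed FPKM of both genes in 3 wild-type (blue) and 3 Sp8 null (red) libraries with the mean as a bar. The shared block holds the whole last exon of Sp6, and the Gm11532 points are at 21.1 to 28.2 FPKM in wild type and 6.52 to 9.99 FPKM in Sp8 null.

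The group means of the authors' deposited table gave a second view of this locus. They were 32.9 in wild type and 12.02 in Sp8 null for Gm11532, with a fold change of -1.73 and a p-value of 0.001027, and 1.03 and 0.31 for Sp6, with a fold change of -1.03 and a p-value of 0.588026. These means were far under the level that the listed FPKM of Gm11532 corresponds to at other genes. Among 3974 genes at 5 to 50 FPKM in wild type that share no exon base with another gene, the wild-type mean of the authors' deposited table was 22.7 (median; 5th to 95th percentile 7.87 to 38.6) per FPKM and kilobase of exon. The ratio was 15.2 among the 720 genes that share over 10% and up to 50% of their exon bases, and 0.248 among the 209 genes that share more. Gm11532 itself stood at 0.248, at or under the ratio of all but 0.0252% of the genes that share none. At the median ratio of 22.7 the 1943 bases that only Gm11532 uses would carry a mean of 1105 at its listed FPKM, and the 512 bases that only Sp6 uses would carry 291. The deposited means of both genes were far below these values. How reads on shared bases were assigned in either column is not given in the sources used here.

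Sp7 and Sp5 were low throughout. Sp7, known as the bone cell factor osterix, was at 0.484, 0.280 and 0.276 FPKM in wild type and at 0.0308, 0.0684 and 0.0169 FPKM in Sp8 null. All wild-type libraries lay above all null libraries, and the null mean was 11.2% of the wild-type mean. The exact two-sided permutation test gave its smallest p, 0.1, and in the fit with no filter Sp7 did not pass (log2 difference -0.37, 95% interval -0.54 to -0.20; limma, adjusted p = 0.0799). For Sp7 the authors' deposited table listed means of 43.13 in wild type and 4.96 in Sp8 null. Its fold change was -2.69, with a p-value of 0 to the digits given, whose test is not stated. The ratio of these means was 8.70, so that fold change is not their plain ratio. Sp5, a direct target of Wnt signalling in many tissues, was at 0.271, 0.138 and 0.0357 FPKM in wild type and was listed at 0 in Sp8 null embryos 1 and 3 and at 0.0609 FPKM in embryo 2. The groups overlapped, and the difference did not pass (exact two-sided permutation p = 0.2; limma without filter, adjusted p = 0.41). The authors' deposited table listed means of 12.86 in wild type and 2.37 in Sp8 null for Sp5. Its fold change was -1.42, with a p-value of 0.012916, whose test is not stated. On that scale the null mean amounts to a few counts per library. Sp7 lies 39.0 kb from Sp1 on chromosome 15, and the difference of Sp1 did not pass the test.

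The 4 broadly expressed members were measured with narrow intervals, which bounds any rise. Sp1 was at 33.4, 36.1 and 33.9 FPKM in wild type and at 33.0, 29.2 and 33.0 FPKM in Sp8 null (log2 fold change -0.12, 95% interval -0.29 to 0.06; limma, adjusted p = 0.402). The values of Sp3 were 23.3, 23.0 and 23.5 FPKM in wild type against 21.7, 20.7 and 22.5 FPKM in Sp8 null (log2 fold change -0.10, 95% interval -0.26 to 0.05; limma, adjusted p = 0.394). Both were slightly lower in each null library than in any wild-type library, with null means at 92.1% of wild type for Sp1 and 92.9% for Sp3, and neither difference passed the test. For Sp2 the wild-type values were 5.93, 6.09 and 6.16 FPKM and the null values 6.03, 5.88 and 6.04 FPKM, with overlapping groups (log2 fold change -0.02, 95% interval -0.19 to 0.16; limma, adjusted p = 0.928). The largest upper bound among Sp1 to Sp4 was that of Sp2, a rise of 1.12-fold in FPKM + 1 with values as deposited, 1.17-fold with median-of-ratios scaling and 1.18-fold with upper-quartile scaling. Rises larger than these were outside the 95% intervals, and smaller ones could not be told from none.

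**Figure D3:**
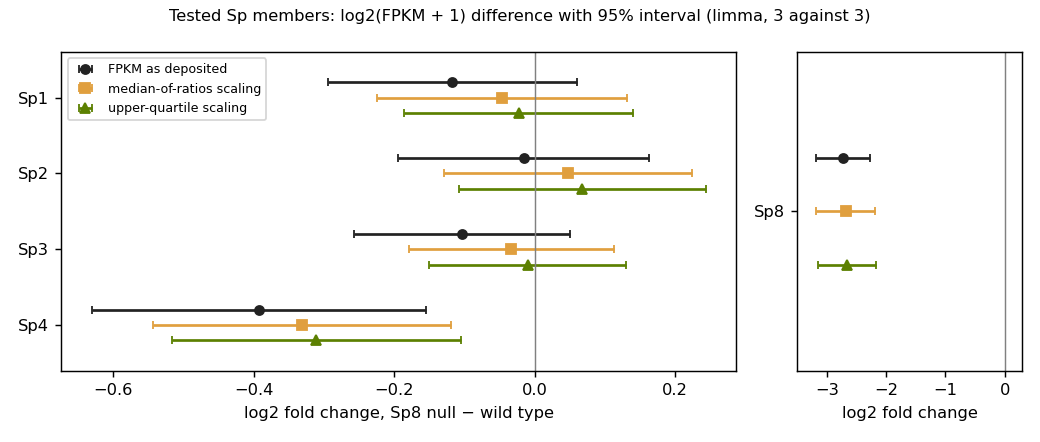
Difference of log2(FPKM + 1), Sp8 null minus wild type, of the 5 tested members with 95% intervals from limma (3 libraries a group), for FPKM as deposited and under 2 other scalings. Intervals of Sp1, Sp2 and Sp3 include 0 under each scaling, that of Sp4 lies below 0 under each, and Sp8 is on its own axis near -2.73.

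Sp4, a broadly made member that is prominent in neurons, had the largest difference among them. It was at 6.14, 6.79 and 5.37 FPKM in wild type and at 4.52, 4.15 and 4.52 FPKM in Sp8 null. The null libraries were all lower and close together, and the null mean was 72.0% of the wild-type mean. The log2 fold change was -0.39 (95% interval -0.63 to -0.15, SE 0.102), with an unadjusted p of 0.00556 in limma and an adjusted p of 0.0637, so Sp4 was not called. It stayed above the threshold in all 15 alternatives, with limma adjusted p-values from 0.0594 to 0.219 and log2 fold changes from -0.47 to -0.31. The authors' deposited table gave means of 1430.91 and 1054.63, a fold change of -1.34 and a p-value of 1e-06, whose test and adjustment are not stated.

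Sp4 is the chromosomal neighbour of Sp8, at 118234933 to 118301440 on the minus strand of chromosome 12, and a gap of 544.9 kb parts them. The other tested genes within 1 Mb of Sp8 were therefore read beside it. Of the 5 besides Sp8, Itgb8, an integrin subunit, was called (log2 fold change -0.94; limma, adjusted p = 0.00646), against 6.83% of all tested genes. Cdca7l (-0.48), Dnah11 (-0.40), Sp4 (-0.39) and Macc1 (-0.15) were not called (limma, adjusted p = 0.0599, 0.0526, 0.0637 and 0.467). All 5 had lower means in Sp8 null, as had 7432 of the 12133 tested genes. By the crosses described the groups had separate parents, so the Sp8 allele and the descent of the region around it cannot be told apart.

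Summed over the family, the FPKM of all 9 members was 78.7, 83.9 and 83.5 in wild type and 66.1, 60.6 and 67.3 in Sp8 null. The difference of the means was 17.4 FPKM, of which the other 8 members made up 7.24 FPKM. Without Sp8 the sum of the other 8 members was 71.1 ± 1.59 FPKM in wild type and 63.8 ± 3.27 FPKM in Sp8 null, a ratio of 0.898. As deposited, no null library reached the lowest wild-type library, 70.0 FPKM. The ratio was nearer to 1 under the other scalings, 0.945 with median-of-ratios and 0.961 with upper-quartile factors, and the groups overlapped under both. With median-of-ratios scaling, for example, the sum was 69.3 FPKM in Sp8 null embryo 1 and 66.3 FPKM in wild-type embryo 1. Sp8 took 13.3 ± 2.77% of the family's FPKM in wild type and 1.20 ± 0.466% in Sp8 null, while the share of Sp1 and Sp3 together was 70.5 ± 1.64% and 82.6 ± 0.207%. This larger share came without a higher level of either gene. The Gm11532 row, which may hold Sp6 reads, is not part of these sums.

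**Figure D4:**
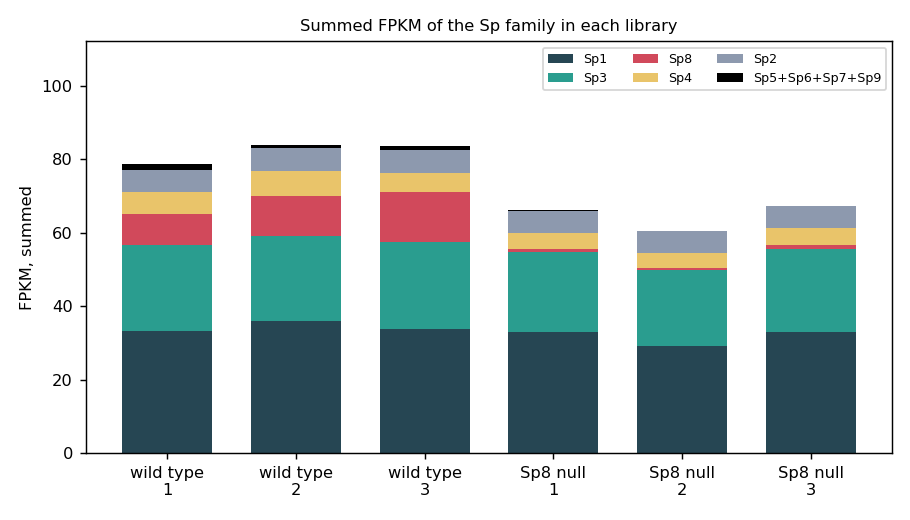
Stacked FPKM of the Sp members in each of 3 wild-type and 3 Sp8 null libraries, with the 4 low members together in black. The bars reach 78.7 to 83.9 FPKM in wild type and 60.6 to 67.3 FPKM in Sp8 null, and the Sp8 segment is thin in the null libraries.

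The genes whose pattern over the 6 libraries was most like that of Sp8 and Sp9 were found by the mean absolute difference of log2(FPKM + 0.1) after each gene was centred on its wild-type mean, among 12136 genes with a wild-type mean of at least 1 FPKM. Nearest to Sp8 was Bhlha9 (0.167), a basic helix-loop-helix factor of the apical ridge, at 27.8, 34.8 and 40.4 FPKM in wild type and 2.20, 1.29 and 3.14 FPKM in Sp8 null. It had the same order as Sp8 within both groups: embryo 3 highest in each, embryo 1 lowest in wild type and embryo 2 lowest in Sp8 null. The next were 4930557F10Rik (0.179) and Sorbs2 (0.291), an adaptor of the actin cytoskeleton at 24.7, 28.1 and 28.2 FPKM in wild type and 2.55, 2.34 and 2.71 FPKM in Sp8 null. Nearest to Sp9 were Rcan2 (0.115), a regulator of calcineurin, at 3.76, 2.30 and 4.36 FPKM in wild type and 0.474, 0.465 and 0.422 FPKM in Sp8 null, then Vat1l (0.243) and C1qtnf3 (0.258). The pseudocount of 0.1 exceeds the null values of Sp9, so its fall is compressed on this scale. For all 6 genes named here every null value lay below every wild-type value. The likeness was measured over both genotypes, so the choice of these genes fixed that separation and its direction. It also used the value of each library, so the choice favoured a matching order within groups.

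**Figure D5:**
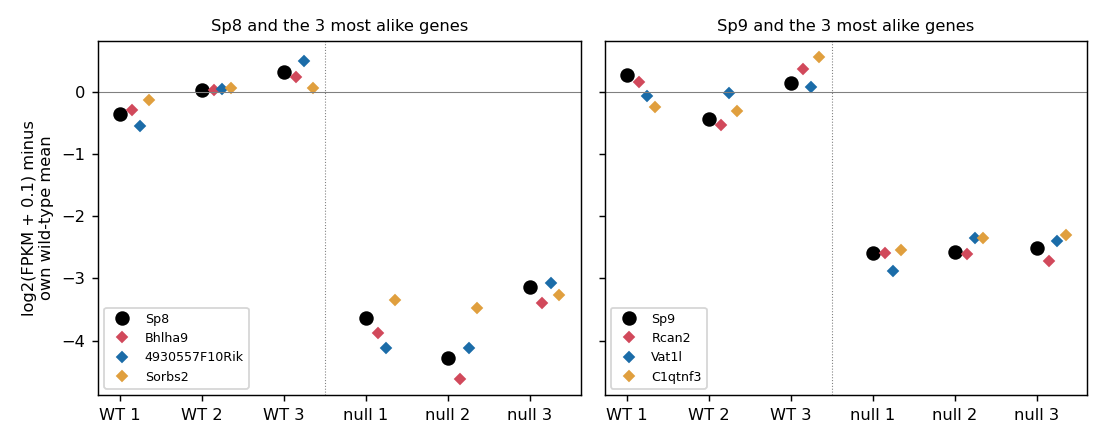
Each gene's log2(FPKM + 0.1) minus its own wild-type mean in 3 wild-type (WT) and 3 Sp8 null libraries, for Sp8 (left) and Sp9 (right) in black and the 3 most alike genes of each in colour. Bhlha9 stays close to Sp8 in every library (mean absolute difference 0.167), and Rcan2 close to Sp9 (0.115).

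Of the KLF factors, the nearest relatives of the Sp family, 8 of 17 passed the filter. Klf13 was called, with a null mean of 2.65 ± 0.145 FPKM and a wild-type mean of 4.09 ± 0.255 FPKM (log2 difference -0.48, SE 0.0932; limma, adjusted p = 0.0271), and none was called higher. The list's median log2 fold change was -0.03 (0.02 and 0.04 under median-of-ratios and upper-quartile scaling), against -0.06 over all tested genes, of which 5.15% were called lower and 1.68% higher. The Klf13 call was lost when any 1 library was left out (limma, adjusted p from 0.0537 to 0.119), and with the leading number of the column names, whose meaning is not stated, as a covariate (limma, adjusted p = 0.0513).

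Cofactors and partners of Sp factors could all be tested. Of 16, 1 was called, against 6.83% of all tested genes. It was Hdac2, a histone deacetylase, with means of 99.1 ± 6.68 FPKM in null and 128 ± 6.61 FPKM in wild-type ectoderm (log2 difference -0.37, SE 0.0752; limma, adjusted p = 0.0314). That call was also lost without any 1 library (limma, adjusted p from 0.0513 to 0.117) and with the leading number as a covariate (limma, adjusted p = 0.0598). The median of the list was -0.06, as was that of all tested genes, and under the 2 scalings it was 0.02 and 0.04. Tbp, Hcfc1, Ep300, Crebbp and the Nfy subunits, parts of the machinery through which Sp1 acts, were not called.

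Of 9 tested classic GC box target genes of Sp1, 4 were called lower and none was called higher, against 5.15% and 1.68% of all tested genes. The mean was lower in Sp8 null for 8 of the 9, against 7432 of the 12133 tested genes, and the list's median log2 fold change was -0.41. The called members were Cad (-0.45; limma, adjusted p = 0.0251), of pyrimidine synthesis, Odc1 (-0.72; limma, adjusted p = 0.0435), of polyamine synthesis, the cell cycle inhibitor Cdkn1a (-0.73; limma, adjusted p = 0.0313) and the cyclin Ccnd1 (-0.70; limma, adjusted p = 0.0172). Cdkn1a is also a target of the tumour suppressor p53, and Ccnd1 is also a Wnt response gene. Tk1 (-0.13), a thymidine kinase of nucleotide salvage, was not called (limma, adjusted p = 0.428). None of the 4 calls held without Sp8 null embryo 1 or without wild-type embryo 2, nor with no filter on low values. Between 0 and 4 were called as single libraries were left out, and the Odc1 call was lost with the leading number as a covariate (limma, adjusted p = 0.0520).

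Of 18 limb ectoderm genes that act upstream or downstream of Sp6 and Sp8, 11 were called lower and none was called higher, against 5.15% and 1.68% of all tested genes. This list, like the other gene lists here, was chosen with earlier results of these data known. Its share of calls is therefore not an independent test against all tested genes. The mean was lower in Sp8 null for 16 of the 18, against 7432 of the 12133 tested genes. Wnt3, the ligand upstream of Sp6 and Sp8, was among those called. The receptors and mediators upstream, Ctnnb1 (beta-catenin, log2 fold change 0.05), Lrp6 (-0.09), Lrp5 (-0.24), Fgfr2 (0.20) and Bmpr1a (-0.16), were not called (limma, adjusted p from 0.207 to 0.792). The called genes were the ridge signals Fgf8 (-4.38), Fgf4 (-3.43) and Rspo2 (-3.61), Bhlha9 (-3.49), Bmp4 (-1.72), Msx2 (-1.72), the ventral factor En1 (-1.71), Msx1 (-1.23), Dlx5 (-1.05), the dorsal signal Wnt7a (-0.98) and Wnt3 (-0.52), each with its log2 fold change (limma, adjusted p from 5.68e-06 to 0.0373). The list's median was -1.02. The number called was 8 to 11 as single libraries were left out, and the calls of Wnt3, Wnt7a and Dlx5 were lost without Sp8 null embryo 1 or wild-type embryo 2, among others. The Wnt3 call was also lost with the leading number as a covariate (limma, adjusted p = 0.0621).

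In the list of Wnt feedback and response genes, the group to which Sp5 belongs, 4 of 12 tested genes were called lower and none was called higher, against 5.15% and 1.68% of all tested genes. Of the 12, 5 had a lower mean in Sp8 null, against 7432 of the 12133 tested genes. The called genes were Tcf7 (-1.67; limma, adjusted p = 0.000299), Dkk1 (-0.97; limma, adjusted p = 0.00829), Ccnd1 and Apcdd1 (-0.67; limma, adjusted p = 0.00846). Axin2 (0.19), Lef1 (0.16), Rnf43 (0.10) and Znrf3 (0.08), which report beta-catenin activity widely, were not called (limma, adjusted p from 0.358 to 0.623), and the median of the list was 0.09. Tcf7 encodes a DNA-binding partner of beta-catenin, while Dkk1 and Apcdd1 encode Wnt inhibitors.

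Libraries differed in depth and in traces of other tissue. Absolute depth is unknown. As a ratio to wild-type embryo 1 it ran from 0.842 in Sp8 null embryo 1 to 1.03 in wild-type embryo 3. All 10 ectoderm markers were tested, and their summed FPKM was 594 to 722 in Sp8 null and 731 to 799 in wild type, with each marker at 1 FPKM or more in at least 1 library. Of them Epcam was called lower in Sp8 null (65.9 to 87.7 FPKM against 106 to 118 FPKM) and Tfap2a higher (46.4 to 56.9 FPKM against 33.8 to 37.4 FPKM). The 11 limb mesenchyme markers summed to 36.0 to 70.5 FPKM in wild type and to 52.0, 160 and 46.3 FPKM in Sp8 null embryos 1, 2 and 3, and Lmx1b was called higher in Sp8 null (11.6 to 17.7 FPKM against 5.16 to 7.34 FPKM). Erythroid markers (6 genes) summed to 422 FPKM in wild-type embryo 1 against 11.6 to 162 FPKM elsewhere. Macrophage markers (6 genes, 5 of them under 1 FPKM in every library) had sums of 0.276 to 0.532 FPKM in wild type and of 1.40 to 2.68 FPKM in Sp8 null. Endothelial markers (6 genes) summed to 2.05 to 3.89 FPKM over all libraries. Of the 5 neural markers that have a row, 3 were at 0 in every library, and the sum was at most 0.0995 FPKM. Without Sp8 null embryo 2 the log2 fold changes were -2.60 for Sp8, -0.36 for Sp4 and -1.38 for Gm11532, and without wild-type embryo 1 they were -2.90, -0.39 and -1.63. The part of the other tissue traces in these results was not tested, and in bulk tissue fewer cells that make a factor and less RNA per cell cannot be told apart.

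The column names carry a leading number of unstated meaning, which is 4 for embryo 1 of each genotype and 5 otherwise. Both genotypes occur under each number. Whether it marks litters, which would conflict with the crosses described, is not stated. Within number 4, with 1 library of each genotype, the difference on the log2(FPKM + 1) scale was -2.40 for Sp8, -0.80 for Sp9, -0.53 for Sp7, -0.37 for Sp4 and -1.28 for Gm11532. Within number 5, with 2 of each, it was -2.90, -0.61, -0.29, -0.40 and -1.63 in the same order. Each of these genes was lower in Sp8 null within both. For Sp2 the sign differed, 0.02 and -0.03. With the number as a covariate Klf13, Hdac2, Odc1 and Wnt3 lost their calls, and Sp8 and Gm11532 did not.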

How the data were processed

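RNA-seq values came from 1 deposited table for 6 libraries, grouped by sample titles into 3 Sp8 null and 3 wild type. FPKM values were computed by the authors on Ensembl 87 genes, per the file headers. TopHat2, Cufflinks, SAMtools, FastQC and DESeq2 and the build GRCm38 are named, with no role, in the submitters' processing notes. The deposited group means (a normalized signal on a count scale), the deposited fold change (a signed score) and the deposited p-value are the authors' own, with no test stated, and were only quoted. Strand use and scaling between libraries are not given in the sources used here.

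FPKM was analysed as log2(FPKM + 1) with limma 3.58.1 in R 4.3.3 (exact tests in SciPy 1.17.1), with genotype as the only term and a mean-variance trend, for genes at 1 FPKM or more in at least 3 libraries. P-values were two-sided and adjusted by Benjamini-Hochberg over all 12133 tested genes. The fold on this scale understates low genes. The fit was also run on simulated data, whose outcome is not given here. Members and lists were chosen with earlier results of these data known. Named genes were all members, genes sharing exon bases with them, called list genes and the 3 most like Sp8 and Sp9. Exon overlaps are from GENCODE M21 and cover 49109 of the 49452 genes. Whole reads were not recovered from FPKM, so no counting interval is given. Alternatives changed the pseudocount, filter, scaling, covariates, block, trend and libraries. Promoter windows were found for 7 of the 9 members; Sp6 and Sp7 had none.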

Additional observations from a re-analysis of the deposited data

How the results depend on the processing

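829 genes were called. No filter on low values gave 342, and the count was 438 with a pseudocount of 0.01 and no filter, 545 with the leading number as a covariate and 316 to 642 with single libraries left out, the lowest without wild-type embryo 2. Of the 829, 293, 358, 524 and 309 were among the calls of those fits in that order, the last being without wild-type embryo 2. The remaining alternatives without a block gave 688 to 870. The number of members called was 1, and 2 in both fits with no filter (Sp9 in addition). The ratio of the other 8 members' summed FPKM, 0.898, was 0.961 with upper-quartile scaling and 0.882 to 0.925 with single libraries left out. The log2 difference of Sp2 changed sign with median-of-ratios (0.0474) and upper-quartile scaling (0.0680). With single libraries left out that of Sp6 ran from -0.0358 to 0.0174 and that of Sp3os from -0.364 to 0.0724, both highest without wild-type embryo 2. Of the GC box target list 4 genes were called, against 0 in either fit with no filter, 2 with the block described next and 3 under each scaling. Over 38 genes and 535 values, 455 kept direction and, where a p-value was computed, side of the threshold. Of the others, 74 lost the call, 2 gained it and 4 changed sign. With single libraries left out, Sp5, Sp6, Sp7, Sp9 and D030028A08Rik had no p-value, so only their direction was compared. The cause was not tested.

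With the embryo number as a replicate block 328 genes were called, 312 of them among the 829, and 1 member (Sp8). Same-numbered libraries did not deviate together (correlations -0.164, -0.145 and -0.0699). Single libraries also differed in traces of other tissue, so these values cannot show whether the numbers pair the samples. Absolute depth is unknown, which limits what can be said of members under 1 FPKM.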

Other observations

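GC box letters in promoters were also counted over all tested genes with a promoter entry. Of 6034 genes with at least 1 GC box in a window, 419 were called, or 6.94%, and of 2398 genes with none, 166 were called, or 6.92%. Called genes that were lower in Sp8 null made up 5.57% and 4.63%, and the median log2 fold changes were -0.07 and -0.05. The difference was not tested.

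Sp3os, an antisense transcript that shares 109 exon bases with Sp3, had a null mean of 1.20 ± 0.155 FPKM and a wild-type mean of 1.55 ± 0.805 FPKM (SD over 3 libraries; log2 difference -0.17; limma, adjusted p = 0.684). D030028A08Rik, which shares 126 exon bases with Sp2, was at 0.786 ± 0.104 and 1.01 ± 0.250 FPKM (exact two-sided permutation p = 0.2).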
